A study of Caenorhabditis elegans with 2 samples.

Results

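Of the 2920 nuclear peaks in the main PHA-4 peak list, 487 (16.7%, 95% Wilson interval 15.4 to 18.1) lay in introns away from promoters. An intronic peak was one whose summit fell in an intron of a protein-coding gene and in no exon. The summit also had to lie outside the window from 1000 bp upstream to 200 bp downstream of every protein-coding gene start, and more than 250 bp from any tRNA, snoRNA, snRNA, rRNA or miRNA gene. Position alone chose these peaks, and their signal, replicate lists and sequence played no part. The intronic peaks were set beside all 2433 other nuclear peaks, beside 520 intergenic peaks that were also away from promoters and small RNA genes, and beside 1143 promoter peaks. Unlike the intronic and intergenic peaks, promoter peaks and all other peaks include those near small RNA genes.

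The worms were whole L4 larvae of strain RW12220, whose genotype is st12220[pha-4::TY1::EGFP::3xFLAG] V, a CRISPR insertion that tags PHA-4 at its own gene. They had hatched after bleaching, were held as starved L1 larvae and were collected at 48 h. Chromatin sheared to 200 to 800 bp was precipitated with an anti-GFP antibody in 2 biological replicates, although the labels give pha-4 as the antibody. Both replicates form 1 group, so no condition was compared, and in whole worms peaks of different tissues fall into the same list. Peak positions are on ce11, the same assembly as WBcel235, and gene models are those of Ensembl release 115. Read numbers are not given in the sources used here, so depth is unknown. Intervals below cover counting error only, and p-values describe peaks of this list rather than separate cultures.

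PHA-4 is the FoxA forkhead factor of the nematode, needed for cells to become pharynx and also active in gut, gonad and other tissues of the larva. FoxA factors can bind their sites in closed chromatin, and in many animals they bind enhancers, which often lie within introns. An intron can also hold the start of a shorter transcript of its own gene, so a peak far from the first start of a gene can still be close to a promoter.

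The sequences of 8 intronic summits show what such sites look like, with 50 bp to each side of the summit on the plus strand of WBcel235 as held by RefSeq. Capitals mark TGTTTAC or TGTTTGC, which are forkhead-type sequences, the GA repeat GAGAGAG, the E-box CACGTG, or GAGACG, each on either strand. The first 3 are the strongest intronic peaks that hold a forkhead-type sequence, at chrIV:4407141-4407241 in ell-1, chrX:8019796-8019896 in unk-1 and chrIV:5604581-5604681 in fkh-7.
ell-1: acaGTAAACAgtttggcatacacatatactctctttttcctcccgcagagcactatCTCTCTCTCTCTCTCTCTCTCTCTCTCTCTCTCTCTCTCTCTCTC
unk-1: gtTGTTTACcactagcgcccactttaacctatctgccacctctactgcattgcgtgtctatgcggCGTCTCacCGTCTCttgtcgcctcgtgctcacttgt
fkh-7: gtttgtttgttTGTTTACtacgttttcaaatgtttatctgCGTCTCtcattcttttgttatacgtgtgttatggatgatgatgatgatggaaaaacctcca
The next 3 are the strongest intronic peaks whose interval overlapped both replicate lists, at chrIII:12612602-12612702 in Y111B2A.12, chrIII:1921269-1921369 in pqn-41 and chrII:5661776-5661876 in mdt-26. None of these 3 held TGTTTAC or TGTTTGC within 50 bp.
Y111B2A.12: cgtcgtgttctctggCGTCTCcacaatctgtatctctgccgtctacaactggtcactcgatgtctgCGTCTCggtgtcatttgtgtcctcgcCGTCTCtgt
pqn-41: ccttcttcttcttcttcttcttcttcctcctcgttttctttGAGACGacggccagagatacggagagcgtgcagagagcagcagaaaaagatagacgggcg
mdt-26: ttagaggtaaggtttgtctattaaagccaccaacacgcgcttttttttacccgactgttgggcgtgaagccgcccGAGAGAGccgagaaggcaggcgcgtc
The last pair are the intronic summits of pha-4 itself, at chrV:20753724-20753824 in intron 1 and chrV:20755605-20755705 in intron 2, and neither holds any of the marked sequences.
pha-4, intron 1: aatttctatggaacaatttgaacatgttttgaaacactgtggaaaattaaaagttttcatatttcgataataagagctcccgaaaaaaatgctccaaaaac
pha-4, intron 2: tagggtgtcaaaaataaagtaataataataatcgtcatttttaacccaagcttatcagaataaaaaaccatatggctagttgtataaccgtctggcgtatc

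Introns that meet the rule are a large part of the worm genome, and peaks were sparse in them. Bases that meet the rule spanned 29.7 Mb, 29.6% of the nuclear genome, and held 16.4 peaks per Mb (exact Poisson 95% interval 15.0 to 17.9). The nuclear genome as a whole held 29.1 peaks per Mb, and promoter windows held 53.1 per Mb. A further 58 summits in introns were left out because a small RNA gene was near, and 67 because they fell in a promoter window. By chromosome the density was highest on chromosome III, with 105 intronic peaks or 22.0 per Mb (17.99 to 26.6), and lowest on chromosome V, with 64 or 12.2 per Mb (9.41 to 15.6). Of all nuclear peaks, 523 lay on chromosome III and 434 on chromosome V, so III held more than V in the whole list too. Chromosome X held 14.5 per Mb (11.4 to 18.3), within the counting error of the 16.8 per Mb over the autosomes (15.2 to 18.5).

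Intronic peaks were weaker than peaks elsewhere. Signal is the value that the authors' peak caller gave each peak, on a scale set per list, and it ranks peaks within a list only. The median signal was 87.7 over intronic peaks (quartiles 73.8 and 118.7), against 98.3 over intergenic peaks away from promoters and 108.3 over promoter peaks. Of the intronic peaks, 166 (34.1%) were above the list median of 103.2, compared with 45.2% of intergenic peaks, 54.5% of promoter peaks and 53.2% of all other nuclear peaks. The share was lower by 11.1 percentage points than in intergenic peaks (odds ratio 0.627, adjusted p = 5.86e-04 by an exact test). By the same exact test it was 20.4 points lower than in promoter peaks (odds ratio 0.432, adjusted p = 1.47e-13) and 19.1 points lower than in all other peaks (odds ratio 0.455, adjusted p = 6.83e-14). These are Fisher's exact tests, two-sided, with Benjamini-Hochberg adjustment over 15 comparisons of classes. In the list made from replicate 2 alone the differences ran the same way, but none passed, with adjusted p of 0.139 against all other peaks, 0.139 against intergenic and 0.118 against promoter peaks. In the stricter list made from both replicates, the difference from intergenic peaks was -6.27 points and did not pass either (adjusted p = 0.244, exact test). The other nuclear peaks include 511 within 250 bp of a small RNA gene, with a median signal of 156.2. With these left out, the difference was -12.2 points from all other peaks (adjusted p = 6.57e-06, exact test). From promoter peaks it was then -17.0 points (adjusted p = 4.65e-09, exact test).

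The strongest intronic peak stood at position 27 of the nuclear list, and 6 intronic peaks were among its 100 strongest. At the lower end, 27 intronic peaks had a signal under 20, and each of them lay within 500 bp of a stronger peak. The lin-42 gene is an example, with a peak of signal 144.3 and beside it one of 2.40 in the same intron. In all, 42 intronic peaks lay within 500 bp of a stronger peak.

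Fewer intronic peaks than other peaks were found again in the lists made from single replicates. An overlap of 1 bp or more counted as found. Of the intronic peaks, 222 (45.6%) overlapped the list of replicate 1, against 58.5% of intergenic and 66.8% of promoter peaks, with adjusted p of 8.74e-05 and 1.27e-14 by Fisher's exact test. In the list of replicate 2 there were 185 (38.0%), against 45.6% of intergenic and 43.5% of promoter peaks, with adjusted p of 0.0168 and 0.0424. These replicate 2 differences depended on the setting. With the stricter list in place of the main one, the difference from promoter peaks turned to 1.71 points (adjusted p = 0.735, exact test) and that from intergenic peaks was -4.48 points (adjusted p = 0.377, exact test). The call against intergenic peaks was also lost with protein-coding exons only (adjusted p = 0.137, exact test), and that against promoter peaks when peaks at small RNA genes were left out (adjusted p = 0.179, exact test). Both lists held 96 intronic peaks (19.7%), against 27.7% of intergenic and 31.4% of promoter peaks, with adjusted p of 0.00420 and 1.83e-06. The stricter list made from both replicates overlapped 193 (39.6%), against 47.3% of intergenic and 54.2% of promoter peaks, with adjusted p of 0.0168 and 1.96e-07.

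**Figure D1:**
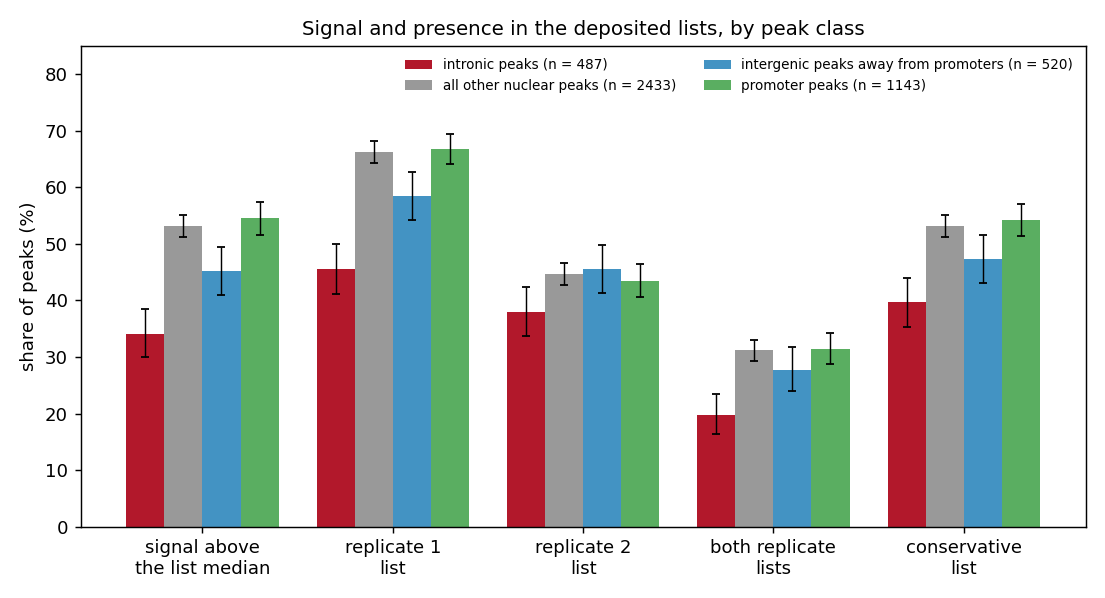
Share of peaks in percent, for intronic peaks and the 3 classes they were compared with, that had a signal above the list median or overlapped each deposited list. Bars are shares with 95% Wilson intervals, and the intronic bar is the lowest of its group in all 5 groups of bars, from 19.7% in both replicate lists to 45.6% in the list of replicate 1.

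The intronic peaks that the replicates shared differed in makeup from those found in 1 of them, as a description of these lists. Besides the 96 in both lists, 126 intronic peaks were in the list of replicate 1 only, 89 in that of replicate 2 only and 176 in neither. The median signal was 177.0 in the peaks of both lists, 91.5 in those of replicate 1 only, 96.5 in those of replicate 2 only and 75.4 in those of neither. Mean GC content around the summit was 50.02% ± 7.59 (SD over peaks) in both lists, 41.9% ± 7.92 in replicate 1 only, 51.2% ± 10.6 in replicate 2 only and 41.7% ± 10.03 in neither. The intronic peaks of replicate 2 only were thus richer in G and C than those of replicate 1 only.

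Each replicate also has a ranked list of candidate peaks before thresholding, 84912 nuclear candidates for replicate 1 and 47072 for replicate 2. A candidate contained the summit of 452 intronic peaks in replicate 1 and 447 in replicate 2, and 419 had a candidate in both. Over those 419, the log2 candidate signals of the replicates had a Pearson correlation of 0.277 and a Spearman correlation of 0.189. The points share worms of 1 strain and the choice of summits from the combined list.

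**Figure D2:**
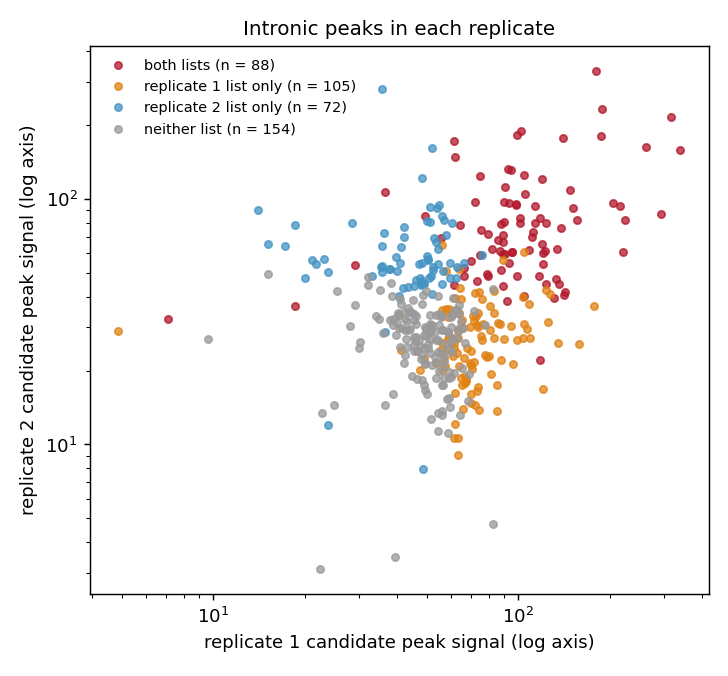
Signal of the candidate peak at each of 419 intronic summits in replicate 2 against replicate 1, both on log axes and on scales set per list, coloured by the thresholded lists that the peak overlapped. Most peaks of both lists sit at the upper right, while most of those in a single list lie high on that replicate's axis only.

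Summits in first introns were denser than those in later introns. First introns held 160 intronic peaks (32.9%, 28.8 to 37.1) in 22.8% of the bases that meet the rule. That is 23.6 peaks per Mb (20.1 to 27.6), against 14.3 per Mb (12.8 to 15.9) in later introns, and the intervals do not overlap. Among later ranks the density lay between 11.1 per Mb in intron 5 and 16.4 per Mb in intron 3, with overlapping intervals. The median signal was 89.2 over first introns and 87.4 over later ones.

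Long introns held more peaks per base than short ones. The introns that held a peak had a median length of 2725 bp (quartiles 814 and 6285). Over all introns with bases that meet the rule the median was 82 bp, but introns of 1003 bp or longer make up 50% of those bases. Introns of up to 500 bp held 8.87 peaks per Mb (6.92 to 11.2), those of 501 to 1000 bp 9.59 and those of 1001 to 2000 bp 12.02 per Mb. The density was 27.5 per Mb (23.0 to 32.6) in introns of 2001 to 5000 bp, 37.1 (30.3 to 45.0) in those of 5001 to 10000 bp and 30.1 (22.1 to 39.96) in longer ones. Introns over 2000 bp thus had 3.09 times as many peaks per base as shorter ones, a ratio that was 2.07 with the looser list and 4.92 with the stricter one, and 2.81 over peaks called in replicate 1 by itself and 6.22 over those of replicate 2.

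Within each of the 6 length classes, the intervals of first and later introns overlapped, and the difference between them was not tested. In introns of up to 500 bp, first introns held 17.0 peaks per Mb (9.93 to 27.3) from 17 peaks, and later introns 7.70 (5.79 to 10.1) from 54. In introns of 501 to 1000 bp the densities were 10.2 per Mb in first and 9.45 in later introns, and in those of 1001 to 2000 bp 14.4 and 11.4. In introns of 2001 to 5000 bp, first introns held 35.4 per Mb (26.5 to 46.3) and later ones 23.9 (19.0 to 29.8). In those of 5001 to 10000 bp the densities were 38.5 per Mb in first and 36.2 in later introns. Above 10000 bp they were 23.4 per Mb (13.9 to 37.0) in first introns and 36.5 (24.4 to 52.4) in later ones.

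**Figure D3:**
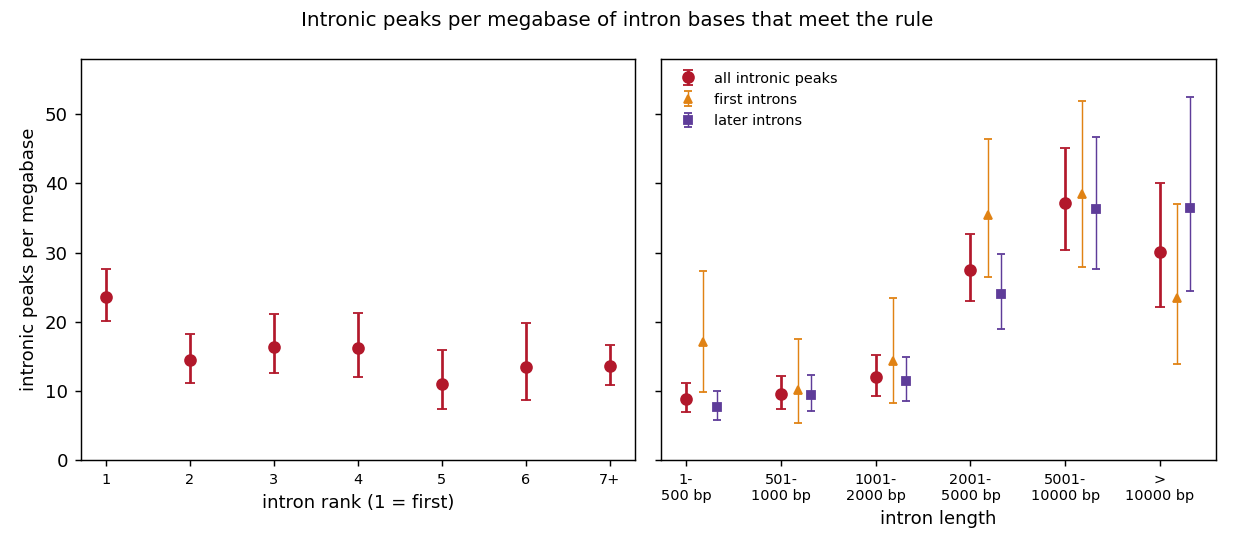
Intronic peaks per megabase of intron bases that meet the rule, by intron rank on the left and by intron length on the right, with exact Poisson 95% intervals. First introns stand at 23.6 per Mb, above every later rank, and introns over 2000 bp stand at 27.5 to 37.1 per Mb, above the 3 shorter classes at 8.87 to 12.02. The interval of first introns (20.1 to 27.6) overlaps those of intron 3 (12.6 to 21.1) and intron 4 (12.1 to 21.3).

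Most summits lay well inside their gene and their intron. The median distance downstream of the gene start was 3458 bp, with a range of 206 to 41566 bp. The median distance to the nearest splice site was 639 bp, and the median position along the intron was 53.1% of its length. The peak interval itself, with a median width of 340 bp, reached into an exon for 156 intronic peaks (32.03%). The summits of 6 intronic peaks lay in introns of more than 1 gene.

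Starts of shorter transcripts took a share of these peaks. The rule removed the window around the start of each gene but not around the starts of its other annotated transcripts. Such a window held 125 intronic peaks (25.7%, 22.0 to 29.7), in 10.9% of the bases. The density was 38.6 per Mb (32.1 to 46.0) in these windows, against 13.7 per Mb (12.3 to 15.2) in the other bases that meet the rule. Examples are the peak of ell-1 printed above, with a signal of 280.7, and the peak of signal 212.4 in hlh-30. The median signal was 89.5 in these windows and 87.4 away from them.

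The intronic peaks fell in 347 genes, 2.04% of the 16974 protein-coding genes that have any intron base meeting the rule (1.84 to 2.27). The median such gene offered 748 bp of these bases, and the median gene with a peak 5036 bp. One peak was found in 256 genes, 2 in 57, 3 in 25 and 4 or more in 9. Of the genes with an intronic peak, 57 (16.4%, 12.9 to 20.7) also had a summit in their own promoter window, against 1025 of 16627 genes without one (6.16%, 5.81 to 6.54). These shares were not adjusted for gene length.

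The gene with the most intronic peaks was zfp-1, which encodes a zinc finger chromatin protein related to human AF10. Its 6 summits lay 3368 to 10614 bp from its start in introns 4 and 9. Their signals were 258.3, 245.0, 188.4, 117.0, 73.8 and 45.4, and the weakest lay within 500 bp of the peak of 245.0. In replicate 1 the 3 strongest had candidate signals of 119.9, 150.7 and 113.8, and in replicate 2 120.9, 92.1 and 93.2. These 3 were in both replicate lists, and the strongest spans chrIII:8800340-8800482.

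In pqn-41, which encodes a protein rich in glutamine and asparagine, all 5 intronic peaks lay in intron 14, which is 10372 bp long, and all 5 overlapped both replicate lists. Their signals were 511.5, 422.4, 336.4, 288.7 and 150.6, so that 4 of the 12 strongest intronic peaks belong to this 1 intron. Over the peaks of 422.4, 336.4 and 288.7, the candidate signals were 188.3, 186.7 and 99.3 in replicate 1 and 231.5, 181.1 and 182.2 in replicate 2. The strongest had 332.5 in replicate 2, and no candidate of replicate 1 contained its summit. It shares its interval with the summit of 150.6, which had 179.3 in replicate 1 and the same 332.5 in replicate 2. Overlap with the replicate lists was counted by interval, so these peaks are not separate findings in them.

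Y111B2A.12 also held its 5 intronic peaks in a single intron, number 4, of 7076 bp. Its strongest peak led all intronic peaks with a signal of 523.8, with 316.9 in replicate 1 and 216.6 in replicate 2. The other 4 had signals of 75.4 to 124.4, and the strongest of these was in both replicate lists while the remaining 3 were in neither. Y48C3A.5 held 4 of its 5 in intron 4, the longest intron with a peak at 19927 bp, with signals of 3.64 to 123.1. In lin-14, a regulator of developmental timing, the 5 peaks were spread over introns 3, 4 and 6, with signals of 72.3 to 103.2, and none was in both replicate lists.

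**Figure D4:**
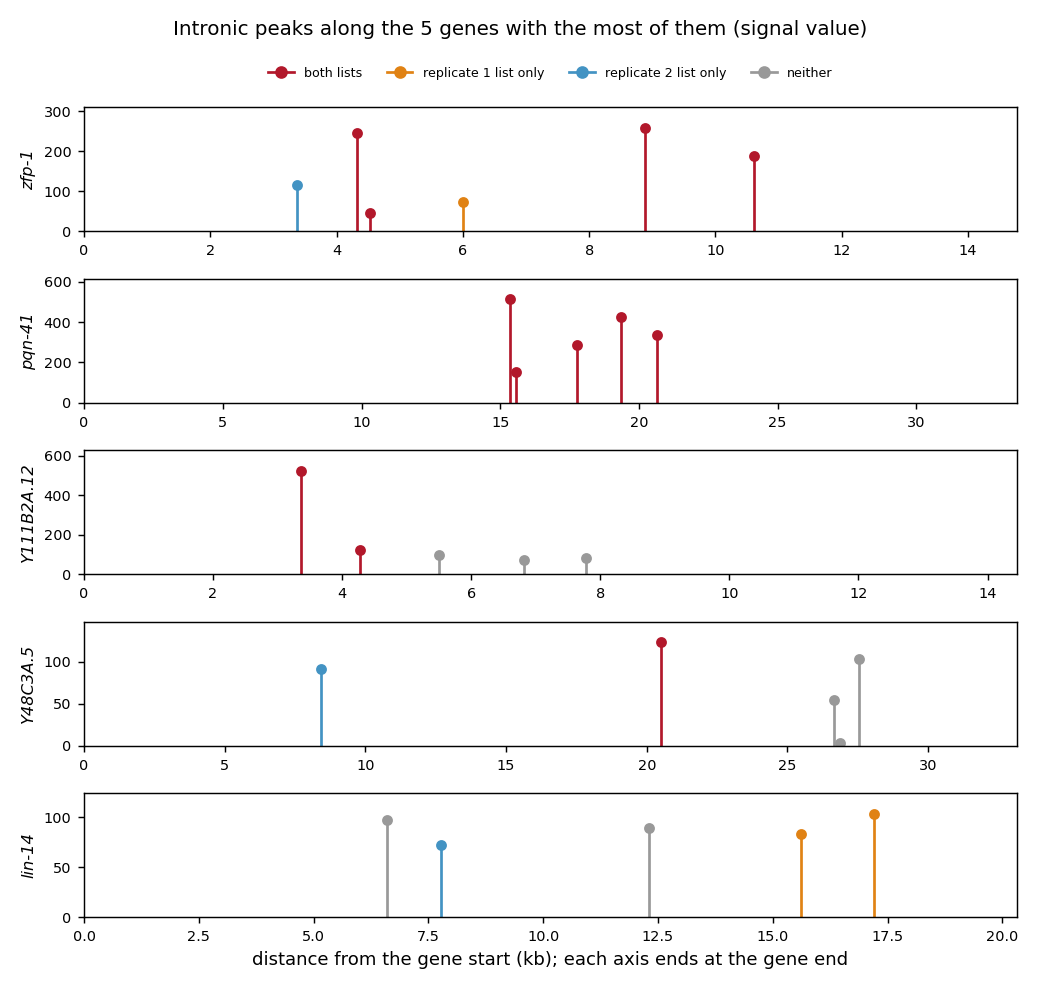
Intronic peaks along the 5 genes with the most of them, at their distance in kb from the gene start, with the signal of each peak as the height on an axis of its own per gene. Colours give the replicate lists that a peak overlapped, and pqn-41 stands apart with all 5 peaks in both lists, between 150.6 and 511.5. Its strongest and weakest peaks are summits of the same interval.

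Among the other strong intronic peaks, most had a high candidate signal in both replicates. In intron 2 of mdt-26, a Mediator subunit gene, the peak of signal 479.3 had 339.9 in replicate 1 and 158.8 in replicate 2. In intron 7 of mom-1, whose product is needed for Wnt secretion, the peak of 424.9 at chrX:6296417-6296745 had 262.7 in replicate 1 and 162.3 in replicate 2. In Y41G9A.17 the peak of 395.8 had 292.6 and 86.8. The peak in intron 5 of nhr-3, a nuclear hormone receptor gene, at chrX:14560281-14560422 had a signal of 309.3, with 215.5 and 93.8. The peak in intron 10 of max-2, a PAK family kinase gene, at chrII:13016475-13016685 had 295.5, with 223.4 and 82.4. That in intron 2 of epg-9, an autophagy gene, at chrIV:2602078-2602318 had 282.8, with 203.8 in replicate 1 and 96.1 in replicate 2.

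First introns held 5 of the 20 strongest intronic peaks, no excess over their 32.9% of all intronic peaks. In daf-5, which encodes a Sno/Ski-like partner of the dauer TGF-beta pathway, 4 peaks lay in the first intron of 14446 bp. The strongest, at chrII:14040293-14040650, had a signal of 324.8, with 140.0 in replicate 1 and 177.9 in replicate 2, and it shares its interval with a summit of 127.5. The first intron of pde-6, a phosphodiesterase gene, held a peak of 326.1 that was in the list of replicate 2 only, with a candidate signal of 281.4 there and 35.7 in replicate 1. It is the strongest intronic peak that was not in both lists. The remaining first-intron peaks of this rank were those of ell-1, F09A5.3 with 245.4 and T24H10.5 with 239.2.

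The intronic peaks of pha-4 itself were weak. The peak in intron 1 lay 722 bp from the start with a signal of 67.1, with candidate signals of 54.8 in replicate 1 and 19.8 in replicate 2, and was in neither replicate list. The peak in intron 2 lay 2603 bp from the start with a signal of 57.0. It had a candidate signal of 61.3 in replicate 1, where it was also in the list, and no candidate in replicate 2. Both signals are below the lower quartile of intronic peaks, and GC content around the summits was 28.7% and 31.7%.

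Gene lists of known tissues and pathways were read against the 2.04% of all genes that held an intronic peak, with no set test, and genes in the lists differ in how much intron they offer. The list of insulin, TOR and longevity genes had 7 of 28 genes with a peak (25%, 12.7 to 43.4), holding 15 peaks in 0.157 Mb. That is 95.8 per Mb (53.6 to 158.1), beside 16.4 per Mb over all genes. The interval treats peaks as independent, although hlh-30, daf-16 and skn-1 held 3 each. The 15 peaks included 3 in hlh-30, the TFEB homologue, of up to 212.4. Another 3 lay in daf-16, the FOXO factor downstream of insulin signalling, with signals of 186.9, 170.2 and 76.0, of which the first pair were in both replicate lists. Peaks were also found in aak-2, a catalytic subunit of AMP-activated kinase, of up to 126.8, and in skn-1, the Nrf-like stress factor, of up to 126.4. The kinase gene pdk-1 (123.4), the insulin receptor gene daf-2 (67.4) and pha-4 made up the rest, while aak-1 and age-1 had none.

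Regulators of the foregut had 3 of 18 genes with a peak (16.7%, 5.84 to 39.2), or 64.9 peaks per Mb (21.1 to 151.5). The strongest was in the first intron of daf-12, a nuclear hormone receptor gene, with a signal of 221.1 and candidate signals of 104.5 in replicate 1 and 124.7 in replicate 2. The others were nhr-48 (81.5) and pha-4, and ceh-2 and ceh-22 had none. Intestinal and metabolic regulators had 2 of 17, which were hlh-30 and skn-1 again, and dve-1 and elt-2 had none. Their 6 peaks, all in hlh-30 and skn-1, come to 109.5 per Mb (40.2 to 238.3).

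Signalling genes of the Notch, Wnt, EGF and TGF-beta pathways had 4 of 39 (10.3%, 4.06 to 23.6). These were the Smad gene daf-14 with 231.6, the Notch effector gene lag-1 with 85.6, the MAP kinase gene mpk-1 with 72.6 and the Notch ligand gene apx-1 with 72.2. Autophagy genes had 2 of 24, epg-9 and atg-2, and the peak of atg-2 had a signal of 5.91. Body wall muscle genes had 3 of 32 (9.38%, 3.24 to 24.2), act-4 with 138.3, unc-52 with 88.2 and lev-11 with 78.9. Per base, the body wall muscle list held 17.99 peaks per Mb (3.71 to 52.6). The signalling list held 30.7 per Mb (8.37 to 78.6) and the autophagy list 64.9 (13.4 to 189.6). Each of these intervals includes the 16.4 per Mb over all genes. The median gene offered 2508 bp of intron in the body wall muscle list and 1981 bp in the signalling list. It offered 974.5 bp in the autophagy list, against 748 bp over all genes. Pharyngeal muscle genes had 1 of 12, the actin gene act-3 with 115.2.

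The remaining lists had 1 gene or none with an intronic peak, and their intervals all include the 2.04% of all genes. None of 29 neuronal and synaptic genes had one in 0.187 Mb of bases, which allows a share of up to 11.7% by the Wilson interval and up to 19.7 peaks per Mb by the Poisson interval. None of 32 ion channel and receptor genes had one in 0.273 Mb, which allows a share of up to 10.7% and up to 13.5 peaks per Mb, set beside 2.04% and 16.4 per Mb over all genes. Channel genes outside this chosen list did hold intronic peaks, such as the potassium channel gene twk-45 with 83.5. The Poisson bounds treat peaks as independent, although 91 genes held 2 or more. Axon guidance and cell adhesion genes had 1 of 30, the cadherin gene hmr-1 with 66.3. None of 30 intestinal terminal genes and none of 16 hindgut and excretory regulators had one, and these lists offered 0.0404 and 0.0600 Mb. The hypodermal list had 1 of 22 (ajm-1, a cell junction gene, 56.4), the germ line list 1 of 29 (tra-1, the sex determination factor, 111.7) and the housekeeping list 1 of 21 (gpd-2, 72.4).

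Classes of genes with a shared name were counted in the same way. Of 8 forkhead genes with the name fkh, 2 had intronic peaks (25%, 7.15 to 59.1). These were fkh-7 with 1 of 203.9 in intron 4 and fkh-9 with 3 of up to 83.2 in its first intron. Forkhead genes of other names, such as pha-4 and daf-16, were not in this count. Of 12 basic leucine zipper genes with the name zip, zip-7 (194.0), zip-2 (178.1) and zip-5 (89.5) had one each (25%, 8.89 to 53.2). Nuclear hormone receptor genes had 6 of 261 (2.30%, 1.06 to 4.92), close to the share over all genes. Genes with the name lin had 3 of 46 with a peak (6.52%, 2.24 to 17.5), beside 2.04% over all genes. These were lin-42, lin-28 and lin-14, all of them developmental timing genes. They held 9 peaks, or 48.7 per Mb over the lin genes (22.3 to 92.5). The median lin gene offered 1986.5 bp of intron. Of 43 two-P domain potassium channel genes (twk), 1 had a peak (2.33%, 0.412 to 12.1), at 6.64 per Mb (0.168 to 37.0). Genes named unc for uncoordinated movement had 6 of 91 with a peak (6.59%, 3.06 to 13.6), at 12.6 per Mb (5.43 to 24.8). None of 225 C-type lectin genes had one, which allows up to 1.68% of genes and up to 20.6 peaks per Mb. None of 186 chemoreceptor genes of the str class had one, which allows up to 2.02% and up to 31.0 per Mb, and none of 42 neuropeptide receptor genes, which allows up to 8.38% and up to 21.3 per Mb. Lectin and str genes offer little intron, with medians of 513 and 458.5 bp per gene against 748 bp over all genes, and all of these per-Mb bounds include the 16.4 over all genes.

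Short sequences at the summits were compared with those at points 500 bp to either side that also meet the rule. The windows reached 50 bp to each side, 342 pairs were available on the left and 347 on the right, and the larger p of the left and right side is given. The letters R, Y, W, K and S stand for A or G, C or T, A or T, G or T, and C or G. Each of the 9 sequences was searched on both strands. The share over all windows of the same length laid end to end on bases that meet the rule is given last.

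The GA repeat GAGAGAG was more frequent at intronic summits than beside them. It was found at 52 summits (10.7%, 8.24 to 13.7), against 2.47% of flanking windows and 1.18% of all intron windows, with adjusted p = 0.00241 by the exact McNemar test. The repeat was not particular to introns, since 12.7% of intergenic summits away from promoters and 7.26% of promoter summits also held it. The E-box CACGTG, a site for basic helix-loop-helix and related factors, was found at 34 summits (6.98%, 5.04 to 9.60), against 1.89% of flanking windows and 1.38% of all intron windows, with adjusted p = 0.00241 by the exact test. Both missed the threshold, with adjusted p = 0.0750 by the exact test, when the 125 peaks at other transcript starts were left out. In the list of replicate 2 alone the E-box difference was 0.792 percentage points (adjusted p = 1, exact test).

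Forkhead-type sequences did not pass against flanking windows. TGTTTAC was found at 17 summits (3.49%, 2.19 to 5.52), against 1.31% of flanking windows and 1.10% of all intron windows (adjusted p = 0.289, exact McNemar test). TGTTTGC was found at 10 summits (2.05%), against 2.18% of flanking windows and 1.64% of all windows. The broad PHA-4 consensus TRTTKRY was found at 25.5% of summits, against 24.7% and 24.6%, and its reversed pattern YRKTTRT at 18.5%, against 22.9% of both. The GATA-type sequence WGATAR was at 24.2%, against 22.1% and 18.7%, the NF-I half-site TTGGC at 13.8%, against 17.3% and 16.3%, and the AP-1 sequence TGASTCA at 0.821%, against 1.16% and 0.789%. The 7 sequences other than the GA repeat and the E-box had adjusted p of 0.289 or more.

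**Figure D5:**
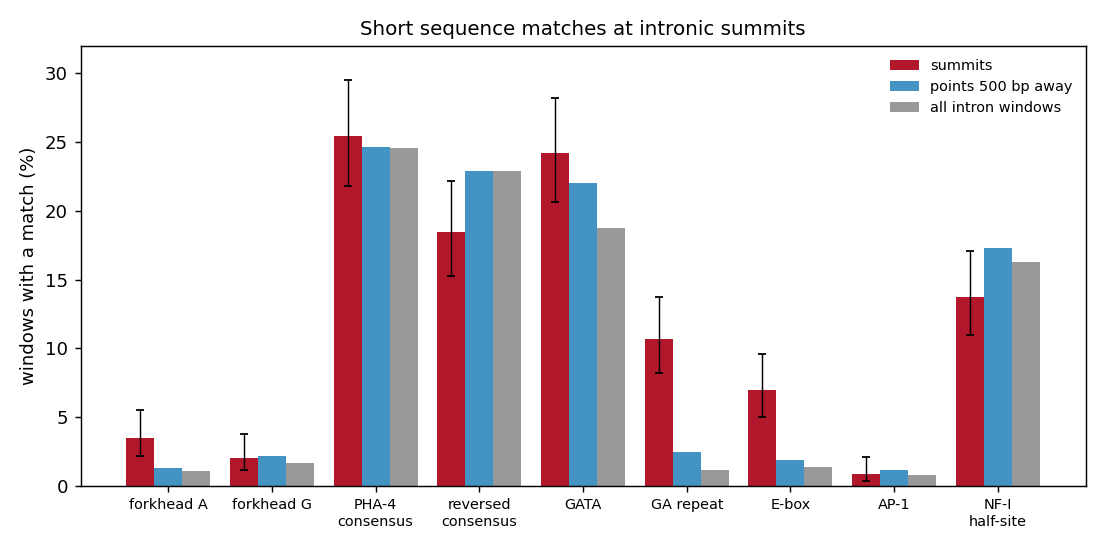
Share of windows in percent that hold each short sequence, at 487 intronic summits with 95% Wilson intervals, at flanking points 500 bp away and in all intron windows. Forkhead A and forkhead G stand for TGTTTAC and TGTTTGC. The GA repeat and E-box are the pair in which the summit share, 10.7% and 6.98%, differed from that at flanking points by the exact McNemar test. The difference from all intron windows was not tested.

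Base composition differed alongside these sequences. Mean GC content around intronic summits was 45.1% ± 10.1 (SD, n = 487), against 32.9% ± 8.31 over 293517 intron windows, and its part in the motif shares was not tested. Among windows of 40 to 50% GC, GAGAGAG was at 25 of 181 summits (13.8%, 9.53 to 19.6) and in 2.99% of intron windows. In the same class CACGTG was at 13 summits (7.18%, 4.25 to 11.9) and in 3.28% of intron windows. Above 50% GC the shares were 14.9% of 154 summits and 5.06% of windows for GAGAGAG, and 9.09% and 2.59% for CACGTG. Repeat-masked letters made up more than 50% of the window at 87 intronic summits (17.9%), against 47.6% of intron windows.

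The intronic peaks of the replicates differed in these sequences, as a description. GAGAGAG was at 22 of the 96 summits in both lists (22.9%), 6 of 126 in replicate 1 only, 15 of 89 in replicate 2 only and 9 of 176 in neither. CACGTG was at 7 of 96 in both lists, 14 of 126 in replicate 1 only (11.1%), 1 of 89 in replicate 2 only and 12 of 176 in neither.

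Shares of 5 of the 9 sequences differed between intronic and promoter summits. TGTTTAC was at 3.49% of intronic summits and 1.14% of promoter summits (odds ratio 3.14, adjusted p = 0.0118 by an exact test). TGTTTGC ran the other way, at 2.05% of intronic and 5.42% of promoter summits (odds ratio 0.366, exact adjusted p = 0.0118). WGATAR was at 24.2% of intronic and 16.4% of promoter summits (odds ratio 1.62, exact adjusted p = 0.00828), and CACGTG at 6.98% and 3.50% (odds ratio 2.07, exact adjusted p = 0.0123). TTGGC was at 13.8% of intronic and 19.2% of promoter summits (odds ratio 0.673, exact adjusted p = 0.0327). Against intergenic peaks away from promoters, none of the 9 sequences passed Fisher's exact test, and none had an unadjusted p under 0.05. The p-values are adjusted over 27 comparisons by the Benjamini-Hochberg method. Promoter summits near small RNA genes were kept here, and the comparison was not repeated without them. Mean GC content was 45.1% at intronic, 43.9% at intergenic and 46.8% at promoter summits.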

How the data were processed

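The authors deposited peak lists on ce11, with the signal of each peak and, in the ranked lists, the −log10 of the irreproducible discovery rate (IDR). Per the notes deposited with them, the authors started from filtered alignments, with a control. Aligner, peak caller and settings are not given in the sources used here, and control reads were not used. The less strict thresholded list of both replicates, with an IDR of at most 0.01, was the main list. A looser list was taken from its ranked list at an IDR of at most 0.05, without the authors' other filter.

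From these, positions were classified with Python 3.11.15, numpy 2.4.6 and pandas 2.3.3, on Ensembl release 115 and the RefSeq sequence of WBcel235. Intron rank was counted along the longest transcript with the summit in an intron. Tests (scipy 1.17.1) were checked on simulated data. A candidate signal is that of the strongest candidate containing the summit. No table column of other samples was present.

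Members and the 15 gene lists and 23 gene classes were chosen with earlier results of these data known. Named genes are pha-4, hosts of the 20 strongest peaks and of the strongest by class, the 5 genes with the most peaks and, per list, up to 4 with and 2 without a peak. Chosen after the values were seen were the genes named by class or as examples, the tests between classes of summits, GC classes, other transcript starts, groups by replicate list, the ratio at 2000 bp and GAGACG.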

Additional observations from a re-analysis of the deposited data

How the results depend on the processing

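Counts followed the list used. The stricter list gave 201 intronic peaks (12.9% of its peaks, 6.78 per Mb, 157 genes), the looser list 1080 (21.4%, 36.4 per Mb, 725 genes), and the single replicate lists 241 to 286 (13.5% to 14.7%, 8.12 to 9.64 per Mb, 186 to 223 genes). Leaving out windows at any transcript start gave 12.4% and 13.7 per Mb, counting only protein-coding exons 18.1%, and a promoter window of 2000 to 500 bp 14.2%. First introns held 27.5% in the looser list and 28.5% without other transcript starts. The median intron was 1750.5 bp in the looser list, 3369 bp with the wide promoter window and 2277 to 4296 bp in single replicate lists, where the length ratio was 2.81 to 6.22. That ratio was 4.92 in the stricter list.

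Signal differences in percentage points in single replicate lists were -17.8 to -5.56 against all other peaks, -7.83 to -6.65 against intergenic and -18.6 to -8.12 against promoter peaks, and those of replicate 2 missed the threshold. Against intergenic peaks the stricter list gave -6.27 (adjusted p = 0.244, exact test). Differences in the list of replicate 2 missed the threshold under several settings. Against all other peaks they were -0.0595 in the stricter list, -3.47 with protein-coding exons only, -5.11 with the wide promoter window and -4.73 without small RNA peaks. Against promoter peaks they were 1.71 in the stricter list (sign turned), -5.00 without other transcript starts, -2.76 with protein-coding exons only, -4.07 with the wide window and -3.65 without small RNA peaks. Against intergenic peaks they were -4.48 in the stricter list and -4.86 with protein-coding exons only. The stricter list also gave -7.32 for the list of replicate 1 and -9.27 for both lists against intergenic peaks, and -8.99 for both lists against promoter peaks, none past the threshold. With protein-coding exons only, overlap with the stricter list against intergenic peaks was -6.02. Leaving out small RNA peaks was chosen after seeing the data. The cause of these changes was not tested.

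The GA repeat difference was 8.62 points and the E-box difference 5.13 without other transcript starts, where fewer peaks were tested. In single replicate lists the E-box difference was 0.792 to 8.23, and that of GAGAGAG was 11.7 to 22.7. Among sequences that passed under no setting, the sign turned for TRTTKRY (-0.318 in the stricter list, -0.205 without other transcript starts, -0.496 with the wide window, -3.96 to -0.748 in single replicate lists). It also turned for TGTTTGC (0.283 looser, 0.249 to 0.264 in single lists), YRKTTRT (0.495 looser), TTGGC (3.82 stricter, -4.49 to 2.24 in single lists) and WGATAR (-2.37 to 5.74 in single lists). Of the values recomputed, 239 kept their direction and side of the threshold or stayed close in size, 27 moved, 21 lost their call and 13 turned in sign. No paired analysis was possible because both replicates form 1 group. Unknown depth, unused control reads and scales set per list limit what signal shows.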

Other observations

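The 6 letters GAGACG, seen in several of the printed sequences and then counted, were within 50 bp of 71 intronic summits (14.6%, 11.7 to 17.99), on either strand. They were at 14.6% of intergenic summits away from promoters, 14.6% of promoter summits and in 2.00% of all intron windows. Among the 96 intronic peaks of both replicate lists 25 held them (26.0%), against 17 of the 176 in neither list (9.66%). The printed peaks in which the letters were seen, of unk-1, fkh-7, Y111B2A.12 and pqn-41, are themselves in both lists. The higher share there is therefore partly built in, and mean GC content also differed, at 50.02% against 41.7%. Among windows of 40 to 50% GC they were at 31 of 181 intronic summits (17.1%) and in 4.70% of intron windows. No test was made, since the letters were chosen from these sequences.

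Several other genes held more than 1 intronic peak. The Nemo-like kinase gene lit-1, which acts in Wnt signalling, held 4 with signals of 70.4 to 112.5 in introns 2, 8 and 10. The zinc finger gene ccch-1 held 4 of 70.1 to 118.7, and the myotubularin gene mtm-3 held 4 of 23.2 to 90.4. In egl-4, the cGMP-dependent kinase gene, 2 peaks reached 154.7, and in egl-27 2 peaks reached 149.7. Some strong intronic peaks were in the thresholded list of a single replicate. In srt-52 the peak of 228.5 had a candidate signal of 177.5 in replicate 1 and 36.6 in replicate 2, and it was also in the stricter list of both. The value of 36.6 was above 95.3% of all candidates of replicate 2. In F01D5.10 the peak of 208.3 had 177.3 in replicate 2 and no candidate in replicate 1. These genes were named after their values were seen.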
